A study of Saccharomyces cerevisiae with 10 samples.

Results

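Amino acid biosynthesis genes were followed here by the abundance of strains that each lack 1 of them, in a mixed pool of budding yeast (Saccharomyces cerevisiae) grown with benomyl, a drug that breaks down microtubules. The list held 49 genes, chosen by name: enzymes and activators of histidine, arginine, leucine, lysine, aromatic amino acid, methionine, threonine and serine synthesis, and GCN4. Of these, 47 were named in the probe annotation and had values, out of 5325 strains in all. ARG5,6 and ARG8 were not analysed here. Per the labels, a pool of 5896 heterozygous diploid knockout strains, described as convertible to haploids, was sporulated, and haploid MATa cells were selected on "magic medium" at 30 °C. Selection took place in the presence or absence of benomyl, and the DNA barcodes of each strain (an uptag and a downtag) were amplified from genomic DNA and hybridised to a 2-colour tag array. The 10 arrays each had another dose of benomyl (0, 1, 5, 10, 15, 20, 25, 30, 35 or 40 µg/ml). Cells were selected for 2 days on the 4 arrays with the lowest doses, for 3 days on the array at 15 µg/ml and for 4 days on the 5 arrays with the highest doses, in both pools of an array, so dose and days cannot be told apart between these blocks. On the array without drug, both dyes carried a pool without drug.

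Values are log2 ratios of the tag signals of both pools, centred per array on the median of named spots and averaged over a strain's spots. Per the labels, Cy5 carried the pool without drug and Cy3 the pool with drug. No source used here gives the numerator dye. If it is Cy5, the usual setting of the scanner program, a positive value means that the strain was scarcer in the drug pool than the median strain, and a negative value that it was more abundant there. This direction is called likely, and all signs would turn if it ran the other way. No array had a negative correlation with another over all strains, the range being 0.011 to 0.851. The dose trend was a straight line over the 10 arrays, fitted for all 5325 strains in limma, and its size is given as the log2 change that the line spans between 0 and 40 µg/ml, ± its standard error (SE). "Rose" and "fell" are used for an adjusted p below 0.05 over all strains. No dose was repeated, so a p-value measures the scatter of single arrays about a line, and precision is limited by the number of arrays.

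Baker's yeast can make all the amino acids of its proteins. Most deletions on the list leave a strain that must take up 1 or more amino acids from the medium, although paralogs cover for some, as in the case of LEU4 and LEU9. Gcn4 is the transcription activator that raises the expression of most of these enzymes when amino acids run short. Media that select haploids with a MATa-specific HIS3 reporter and with canavanine are made without histidine and arginine, and a haploid that cannot make either is not thought to grow there. Some also lack leucine. The labels do not give the composition of the medium used, so for histidine, arginine and LEU1 strains a tag signal need not come from growing haploids. MET17 (also called MET15) and LYS2 are each also deleted in a parent of the standard deletion collection.

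Of the 47 strains, 2 rose, THR1 and THR4, and 9 fell: LEU4, LEU3, ARG7, ARG3, ARG1, HIS7, MET16, HOM2 and SER2. Over all strains, 10.3% rose and 9.13% fell, so with 4.26% of members rising and 19.1% falling the share called in either direction, 23.4%, lay near the 19.4% of all strains. At an unadjusted p below 0.05 there were 5 positive and 10 negative changes. The median fitted change was -0.07 over the members and 0.09 over all strains, and the medians of the absolute change were 0.61 and 0.60. By pathway, the strains called were 3 of 5 in threonine synthesis (2 rose and 1 fell), 3 of 5 in arginine, 2 of 4 in leucine, 1 of 2 in serine, 1 of 6 in histidine and 1 of 9 in methionine synthesis. No lysine or aromatic strain was called, nor GCN4, and the map of all values by dose shows each strain.

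**Figure D1:**
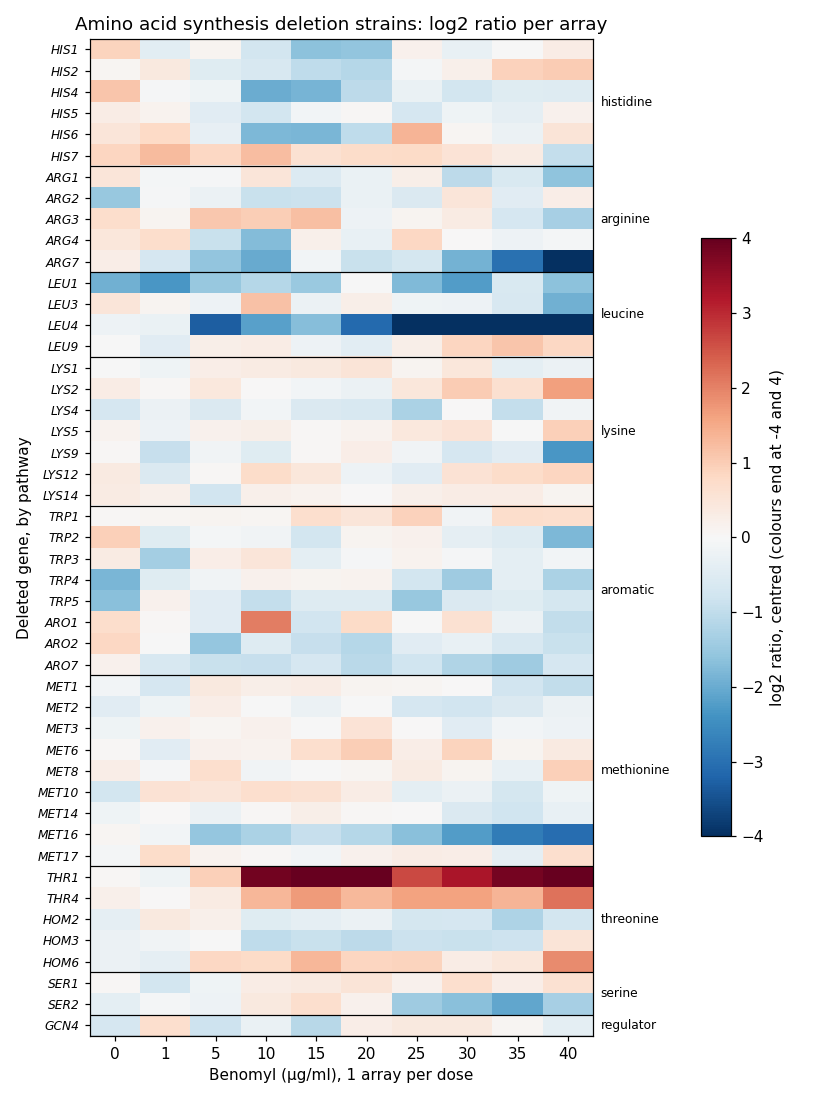
Centred log2 ratio (colour) of the 47 deletion strains (rows, by pathway) on the 10 arrays (columns, benomyl in µg/ml). THR1 and THR4 are high from 10 µg/ml on, LEU4 and MET16 are low from 5 µg/ml on, and ARG7 is lowest at 40 µg/ml, at -4.51.

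The 2 sections of the array layout were taken to hold different tags of a strain, and they give each strain a second reading from the same pools. Of the 11 strains called, all had the same sign in both sections. LEU4, MET16, THR1 and THR4 passed the threshold in each section alone, ARG1, HOM2 and SER2 passed in 1 section alone, and HIS7, ARG3, ARG7 and LEU3 passed in neither. Among the 36 strains not called, 18 had opposite signs in the 2 sections. The call was made on the mean over both sections, so strains with opposite signs were unlikely to be called. The same sign among the called strains is therefore no separate support for them. Over all members, 61.7% had the same sign in both sections, against 72.1% of all strains. The plot of the fitted change in each section shows the 4 strains close to the diagonal and TRP2, ARO2 and GCN4 far from it.

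**Figure D2:**
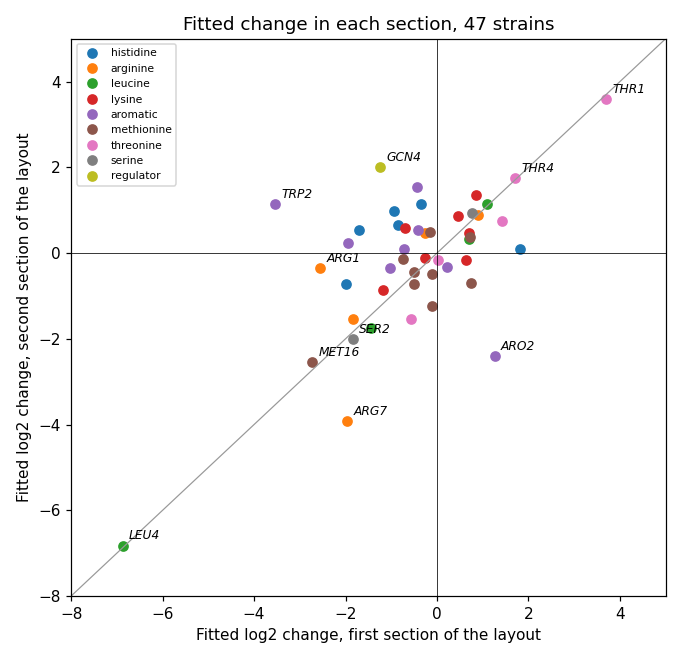
Fitted log2 change from 0 to 40 µg/ml in the first (x axis) and the second section (y axis) of the layout, 1 point per deletion strain, coloured by pathway, with the line of equality. LEU4 (-6.87 and -6.82), MET16 (-2.72 and -2.55), THR1 (3.71 and 3.61) and THR4 (1.71 and 1.75) lie near that line.

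Threonine synthesis held the 2 strains that rose. The pathway runs from aspartate through aspartate kinase (HOM3), aspartic semialdehyde dehydrogenase (HOM2) and homoserine dehydrogenase (HOM6) to homoserine, which homoserine kinase (THR1) and threonine synthase (THR4) turn into threonine. THR1 (YHR025W) read 0.04 without drug, -0.16 at 1 µg/ml and 0.95 at 5 µg/ml. It then read 3.85, 4.18 and 3.98 at 10, 15 and 20 µg/ml, and at 2.65, 3.26, 3.82 and 4.21 at 25, 30, 35 and 40 µg/ml. The course was thus a step between 5 and 10 µg/ml, within the 2-day arrays, followed by a high level. The fitted change was 3.66 ± 0.99 (SE, n = 10 arrays, limma adjusted p = 0.0247). A line describes such a step poorly, and the strain was not called with days of selection as a covariate (3.71, adjusted p = 0.397) or on the 4-day arrays alone. The slope was 3.93 on the log2 scale per 10 µg/ml within the 2-day arrays and 0.33 within the 4-day arrays, a difference that did not pass over all strains (limma interaction, adjusted p = 0.147), as it did for 0.188% of them. Repeated spots within a section had standard deviations of 0.0342 to 0.120 for this strain (6 spots in each section). These spots share an array and its pools, so they do not measure the scatter between the single arrays on either side of the step.

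THR4 (YCR053W), which lacks the last enzyme, took a similar course at lower values. It read 0.21, 0.0015 and 0.33 at 0, 1 and 5 µg/ml, then 1.32 and 1.71 at 10 and 15 µg/ml. At 20 to 40 µg/ml it lay between 1.29 and 2.17. All values from 10 µg/ml on were above all values below that dose. The line spanned 1.73 ± 0.38 (adjusted p = 0.00885), and this call held without any single array (1.52 to 2.00). It was lost with days of selection as a covariate (1.73, adjusted p = 0.297), on the 4-day arrays alone (1.20, adjusted p = 0.494), with arrays scaled to equal spread (0.91, adjusted p = 0.415) and after quantile normalization (0.84, adjusted p = 0.418). With equal spread and after quantile normalization THR1 was not called either, at 2.11 (adjusted p = 0.5001) and 2.29 (adjusted p = 0.323). Among the fits that leave out 1 array, the call of THR1 was lost without the 0, 1, 35 or 40 µg/ml array, with changes of 3.01 to 4.05 over all 10.

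Of the 3 strains lacking the earlier enzymes, which make homoserine, none rose. HOM2 fell, by 1.05 ± 0.31 on the log2 scale (adjusted p = 0.0355), with values of -0.36, 0.38, 0.21, -0.47 and -0.37 at 0 to 15 µg/ml and -0.24, -0.72, -0.68, -1.22 and -0.73 at 20 to 40 µg/ml. Its values at low and high dose overlapped. Its sections were at -0.57 and -1.54, with a correlation of 0.18 between them over the arrays. The call of HOM2 was lost without any 1 of 6 single arrays (changes of -1.28 to -0.87 over the 10 fits). The strain next to it on the chromosome, SAC3, which lacks an mRNA export factor, fell by 3.19 ± 0.57 (adjusted p = 0.00339). HOM6 had a fitted change of 1.09 ± 0.50 (adjusted p = 0.154), with values between 0.31 and 1.88 from 5 µg/ml on and of -0.23 and -0.36 below. Its values over the 10 arrays, which share pools between strains, had r = 0.74 with THR1 and 0.78 with THR4. This was not particular to the pathway, as SER1 of serine synthesis had r = 0.83 and 0.85 with them. HOM2 had r = -0.66 and -0.71 with THR1 and THR4, and HOM3 had -0.41 and -0.22. HOM3 was at -0.07 ± 0.49, though at -1.06 to -0.83 on each of the 6 arrays from 10 to 35 µg/ml and at 0.53 at 40 µg/ml. The differences between these strains were not tested.

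LEU4 (YNL104C) had the largest change of the list. It encodes the main alpha-isopropylmalate synthase, the first committed enzyme of leucine synthesis, which leucine inhibits. The strain was at -0.21 and -0.27 at the 2 lowest doses (0 and 1 µg/ml) and dropped to -3.28 at 5 µg/ml. It was less low at 10 and 15 µg/ml, with -2.17 and -1.71, and lower again at 20 and 25 µg/ml, with -3.11 and -5.17. At 30, 35 and 40 µg/ml it stood at -6.77, -6.83 and -6.81, which is the lowest value the table can hold, a ratio of 0.01, on all spots with a value. So the fall above 25 µg/ml is understated, and at 35 µg/ml 9 of its 12 spots had a value. The fitted change was -6.85 ± 0.83 (adjusted p = 0.000424), and the call held without any single array (-7.52 to -6.50) and on the 4-day arrays alone (-7.25, adjusted p = 0.0480). With arrays scaled to equal spread the change was -4.10 and was not called (adjusted p = 0.0557). With the likely direction, LEU4 was more abundant in the drug pool than in the pool without drug, relative to the median strain. The neighbouring strain MET4, which lacks an activator of the sulfur genes, rose, by 2.14 ± 0.64 (adjusted p = 0.0390).

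LEU9 (YOR108W) encodes the second alpha-isopropylmalate synthase, the paralog of LEU4, and its strain was not called. It was at -0.0001, -0.47, 0.23, 0.28 and -0.22 at 0, 1, 5, 10 and 15 µg/ml. It was at -0.42, 0.23, 0.85, 1.12 and 0.83 at 20 to 40 µg/ml. The fitted change was 1.12 ± 0.37 (adjusted p = 0.0547), close to the threshold with the opposite sign to LEU4, and alike in both sections (1.10 and 1.15). On ratios as deposited it was called, at 1.36 (adjusted p = 0.0300). Those ratios are not centred, and the median strain changed by 0.33 there, against 0.09 after centring. LEU9 was also called with the trend and robust options of eBayes (1.12, adjusted p = 0.0442). The same held without the 5 or the 20 µg/ml array (1.25 and 1.16). It was not called with equal spread (0.90, adjusted p = 0.254) or after quantile normalization (0.90, adjusted p = 0.250).

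In the 2 other leucine strains the sections did not follow each other over the 10 arrays (r = 0.17 and -0.20 for LEU3 and LEU1). LEU3 encodes the activator of the leucine genes, which responds to alpha-isopropylmalate. It was at 0.47, 0.11, -0.20, 1.17 and -0.24 at 0 to 15 µg/ml, at 0.24, -0.17, -0.22 and -0.63 at 20 to 35 µg/ml, and at -1.93 at 40 µg/ml. It fell by 1.60 ± 0.51 (adjusted p = 0.0491). This rested on that last array, with a change of -0.91 without it, and the call was lost in 9 of the 10 fits that leave out 1 array. LEU1, which lacks isopropylmalate isomerase, was below the median on every array, from -2.31 at 1 µg/ml to -0.0150 at 20 µg/ml, and already at -1.93 without drug. At 20 and 40 µg/ml only 1 of its 2 spots had a value. Its fitted change was 0.51 ± 0.61 (adjusted p = 0.591).

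**Figure D3:**
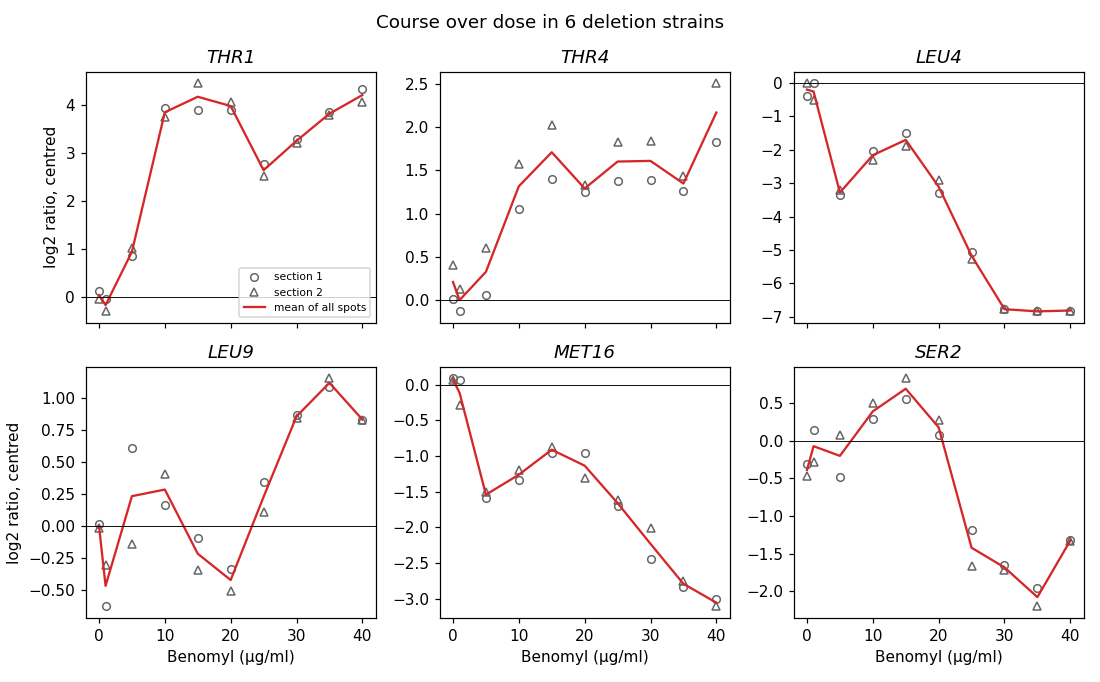
Centred log2 ratio (y axis, a different scale in each panel) against benomyl dose (x axis, µg/ml) for 6 deletion strains, with the mean of all spots as a line and the means of the 2 sections of the layout as circles and triangles. THR1 and THR4 step up between 5 and 10 µg/ml, LEU4 and MET16 fall at 5 µg/ml, lie higher at 15 µg/ml and fall again, and SER2 falls between 20 and 25 µg/ml.

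In methionine synthesis 1 of 9 strains fell and none rose. Sulfate is activated by ATP sulfurylase (MET3) and APS kinase (MET14), reduced to sulfite by PAPS reductase (MET16) and to sulfide by sulfite reductase, of which MET10 encodes a subunit, and joined to O-acetylhomoserine (made by MET2) by MET17. MET16 (YPR167C) read 0.07 and -0.12 at 0 and 1 µg/ml, then -1.54, -1.26, -0.91 and -1.14 at 5, 10, 15 and 20 µg/ml. It read -1.66, -2.23, -2.79 and -3.05 at 25, 30, 35 and 40 µg/ml. All values from 5 µg/ml on were thus below both of those at 0 and 1 µg/ml. Its fitted change was -2.64 ± 0.41 (adjusted p = 0.00164). The call held without any single array (-2.97 to -2.45), with days as a covariate (-4.42, adjusted p = 0.0178) and on the 4-day arrays alone (-3.97, adjusted p = 0.0383). It was lost with arrays scaled to equal spread (-1.53, adjusted p = 0.0799). The neighbouring strain MRP2, a mitochondrial ribosome gene, rose, by 2.71 ± 0.44 (adjusted p = 0.00220), and NUT2 on the other side was at -0.02 ± 0.65.

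The enzymes just before MET16 were not called. MET3 had a fitted change of -0.29 ± 0.29 and MET14 of -0.47 ± 0.30. Neither lay beyond 0.80 on the log2 scale on any array. Of the steps after it, MET10 was at -0.67 ± 0.46. MET1 and MET8, which make the sirohaem cofactor of sulfite reductase, were at -0.61 ± 0.41 and 0.18 ± 0.37. MET17, MET2 and the methionine synthase MET6 were at 0.03 ± 0.35, -0.44 ± 0.31 and 0.55 ± 0.38. Adjusted p-values of these 8 strains were 0.293 to 0.966. MET5, the other sulfite reductase gene and not on the list, fell by 1.45 ± 0.41 (adjusted p = 0.0306).

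The 2 serine strains lack consecutive enzymes, the phosphoserine aminotransferase SER1 and the phosphoserine phosphatase SER2, and their values parted at high dose. SER2 (YGR208W) was at -0.39, -0.07, -0.20, 0.39, 0.69 and 0.17 at 0 to 20 µg/ml. It was at -1.42, -1.68, -2.07 and -1.32 at 25, 30, 35 and 40 µg/ml. The 4 highest doses were all below the 6 lower ones. It fell by 1.92 ± 0.59 (adjusted p = 0.0421), and the call was lost without any 1 of 6 single arrays (-2.29 to -1.59 over the 10 fits). SER1 was at 0.03, -0.74, -0.16, 0.28, 0.35 and 0.52 at 0 to 20 µg/ml and at 0.18, 0.67, 0.28 and 0.61 above, with a fitted change of 0.85 ± 0.31 (adjusted p = 0.0779). On ratios as deposited SER1 was called, at 1.09 (adjusted p = 0.0227). The difference between the strains was not tested.

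**Figure D4:**
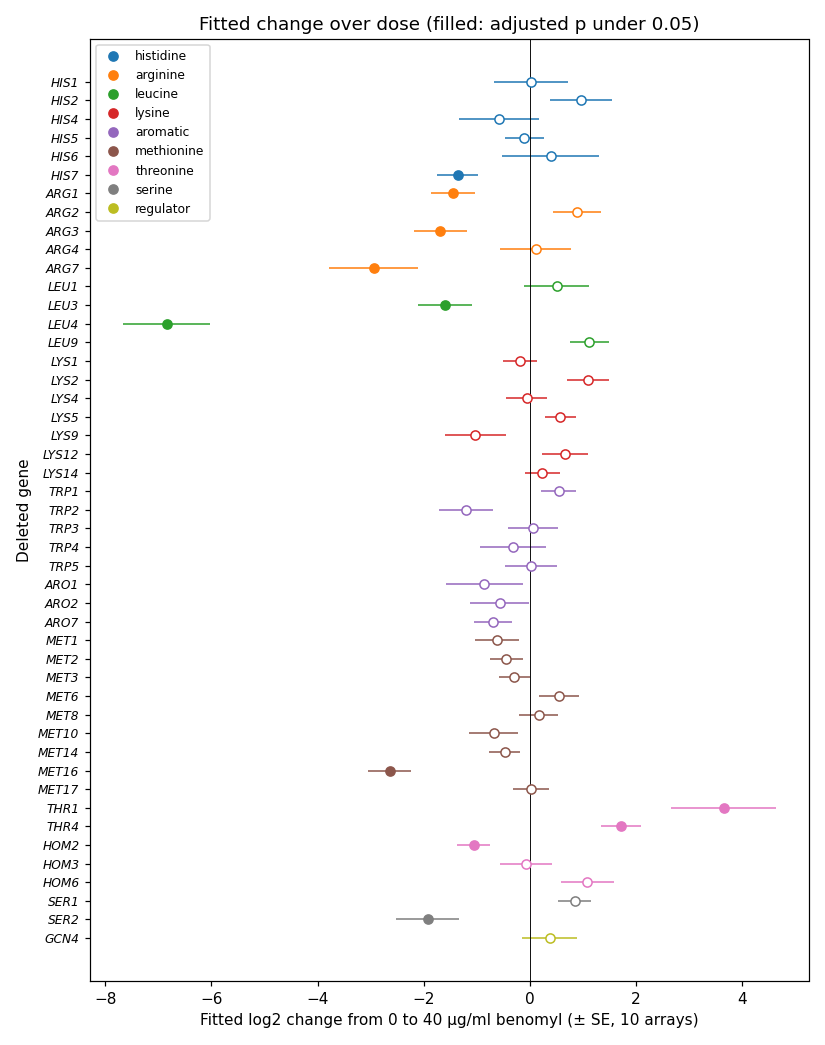
Fitted log2 change from 0 to 40 µg/ml (x axis) with its SE (bars, 10 arrays) for the 47 deletion strains (y axis), coloured by pathway. Filled points have an adjusted p below 0.05: THR1 and THR4 on the right, and 9 strains on the left with LEU4 at -6.85.

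Of 5 arginine strains 3 fell and none rose. Acetylglutamate synthase (ARG2) starts the ornithine branch and ornithine acetyltransferase (ARG7) closes its cycle. Ornithine carbamoyltransferase (ARG3), argininosuccinate synthetase (ARG1) and argininosuccinate lyase (ARG4) then lead to arginine. ARG7 (YMR062C) was at 0.26, -0.66, -1.58, -2.01 and -0.12 at 0, 1, 5, 10 and 15 µg/ml. It was at -0.88, -0.70, -1.89, -2.98 and -4.51 at 20 to 40 µg/ml, so most of the change came above 25 µg/ml. Over the dose range it changed by -2.94 ± 0.84 (adjusted p = 0.0306), lost without the 0, 1, 35 or 40 µg/ml array and at -1.89 without the last. Its sections were at -1.96 and -3.93. RNA14 next to it, a gene for mRNA 3' end formation that haploids need, was at -1.50 ± 0.51 (adjusted p = 0.0621), and RIM9 on the other side was at 0.40 ± 0.29 (adjusted p = 0.358). Of the 20 adjacent strains measured beside the 11 called members, 2 rose, 1 fell and 17 were not called. Over all strains 10.3% rose and 9.13% fell, so adjacent strains were not called more often than others. An effect of a deletion on its neighbour was not tested.

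ARG3 was at 0.71, 0.11, 1.09, 0.98 and 1.21 at 0 to 15 µg/ml and at -0.21, 0.11, 0.33, -0.68 and -1.32 at 20 to 40 µg/ml. It fell by 1.68 ± 0.50 (adjusted p = 0.0373), at -1.21 without the 40 µg/ml array, and lost the call without any 1 of 6 single arrays. Its sections, at -1.83 and -1.53, did not follow each other over the arrays (r = 0.22). At 35 µg/ml they read -1.70 and 0.35. ARG1 was at 0.49, -0.09, -0.04, 0.49 and -0.56 at 0 to 15 µg/ml and at -0.28, 0.24, -1.03, -0.62 and -1.62 at 20 to 40 µg/ml, and it fell by 1.45 ± 0.41 (adjusted p = 0.0306). Its sections were at -2.55 and -0.35, with r = -0.06 between them over the arrays. It lost the call without the 0, 30 or 40 µg/ml array, the last at -1.06. ARG2 and ARG4 were at 0.90 ± 0.46 and 0.11 ± 0.67, and ARG2 was already at -1.52 without drug.

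Of 6 histidine strains 1 fell. HIS7, which lacks the glutamine amidotransferase of the pathway, was at 0.86, 1.25, 0.81, 1.22 and 0.61 at 0 to 15 µg/ml and at 0.74, 0.77, 0.54, 0.33 and -0.97 at 20 to 40 µg/ml. All 5 of its 4-day values were below its 4 values at 2 days, with 0.77 and 0.81 as the nearest pair. It was the 1 member with such a separation in either direction, against 2.42% of all strains below and 4.02% above. Its fitted change was -1.36 ± 0.39 (adjusted p = 0.0306), and without the 40 µg/ml array it was -0.72 and not called. It was also lost without the 1 µg/ml array. Its sections did not follow each other across the arrays (r = -0.20 over 10 arrays that share pools).

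In the middle of the range 4 other histidine strains dipped, while HIS5 read -0.11 and 0.06 at 15 and 20 µg/ml. HIS1, HIS4 and HIS6 were at -1.65, -1.85 and -1.82 at 15 µg/ml and HIS2 lay just past the 2-fold line there. At 20 µg/ml HIS1, HIS2, HIS4 and HIS6 read -1.59, -1.13, -1.05 and -1.03. So 4 of 6 strains were at least 2-fold below the array median on each of these arrays, where 7.46% and 7.10% of all strains were. The 2 arrays were singled out because the dip shows there, so these shares are no test of it. At 10 µg/ml 2 of 6 were that low, HIS4 at -1.97 and HIS6 at -1.81, against 678 of 5324 strains. From 25 µg/ml on HIS1, HIS2, HIS4 and HIS6 lay between -0.73 and 1.35. The sections were uneven here. At 20 µg/ml HIS1, HIS2, HIS4 and HIS6 were at -2.79, -2.28, -1.41 and -2.02 in the first section. In the second section they were at -0.39, 0.01, -0.69 and -0.05, so the 2-fold dip at this dose was seen in the first section only. At 15 µg/ml HIS2 was at -1.98 and -0.02 in the 2 sections, while HIS1, HIS4 and HIS6 were at least 2-fold below in both. Fitted changes of the 5 strains not called were -0.58 to 0.96, and no line would catch a dip of this kind.

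None of 7 lysine strains and none of 8 aromatic strains passed the test in limma. At an unadjusted p below 0.05, LYS2 had a positive and TRP2 a negative change. In the lysine pathway LYS2, the aminoadipate reductase, was at 0.29, 0.04, 0.41, 0.0015 and -0.11 at 0 to 15 µg/ml and at -0.22, 0.44, 1.03, 0.63 and 1.63 at 20 to 40 µg/ml. Its fitted change was 1.10 ± 0.40 (adjusted p = 0.0747), and its sections agreed (0.85 and 1.35). LYS5, which activates the LYS2 enzyme by adding its prosthetic group, was at 0.58 ± 0.29 (adjusted p = 0.184) with its highest value, 0.94, at 40 µg/ml. LYS9 and LYS1, the last 2 enzymes, were at -1.02 ± 0.58 and -0.18 ± 0.33, and LYS9 owed its change to 40 µg/ml, at -2.33. LYS4, LYS12 and the activator LYS14 were at -0.06 ± 0.39, 0.66 ± 0.43 and 0.24 ± 0.33.

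The aromatic strains lack chorismate synthesis (ARO1, ARO2), chorismate mutase (ARO7) or the tryptophan branch (TRP1 to TRP5). TRP2, anthranilate synthase, had the largest change, -1.20 ± 0.51 (adjusted p = 0.125). It was at 0.94, -0.49, -0.08, -0.13 and -0.74 at 0 to 15 µg/ml and at 0.11, 0.18, -0.37, -0.51 and -1.79 at 20 to 40 µg/ml. Its sections were at -3.54 and 1.14, so they do not give TRP2 a direction. The others were between -0.85 ± 0.73 (ARO1) and 0.55 ± 0.33 (TRP1). Only 1 of the 8 strains, ARO7, had the same sign in both sections. ARO7 was below the median on all 9 arrays with drug, from -1.41 to -0.64, and at 0.18 without it, with a fitted change of -0.69 ± 0.36 (adjusted p = 0.201).

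GCN4 (YEL009C) was not called. It was at -0.66, 0.68, -0.83, -0.27 and -1.10 at 0 to 15 µg/ml and at 0.27, 0.38, 0.39, 0.06 and -0.38 at 20 to 40 µg/ml. The fitted change was 0.38 ± 0.52 (adjusted p = 0.645), with sections at -1.24 and 2.00. The sections already lay apart without drug, at 0.83 and -2.14, so they do not give GCN4 a direction or show that it was flat.

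Readings without drug were steadier in some pathways than in others, as described on 1 array and without a test. On the array without drug, where both pools had the same treatment, the median distance between a strain's sections was 2.79 for the aromatic strains, 0.98 for arginine and 0.95 for leucine. It was 0.39 over all strains, 0.13 for lysine, 0.32 for serine, 0.37 for histidine, 0.38 for methionine and 0.48 for threonine. The strain's value was at least 0.5 from the array median in 5 of 8 aromatic, 3 of 6 histidine and 2 of 5 arginine strains, and in 20.7% of all strains. No threonine or serine strain was that far off. Among the 10 members with 12 spots, the median standard deviation of repeated spots was 0.655 for TRP5, 0.542 for ARG1 and 0.438 for HIS4. The 10th and 90th percentiles over the 793 strains with such repeats were 0.0514 and 0.379. For THR1, THR4, HOM6 and LYS5 it was 0.0645 to 0.0735. For LEU4 such a median says nothing of steadiness, since its spots at the lowest value of the table have no spread. Whether the signal of TRP5, ARG1 and HIS4 comes from growing haploids was not tested. The sections followed each other over the 10 arrays with r above 0.9 in 7 strains, LEU4, THR1, MET16, THR4, LYS2, SER2 and HOM6. In 38.3% of members r was above 0.5, against 55.3% of all strains, as a description without a test.

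**Figure D5:**
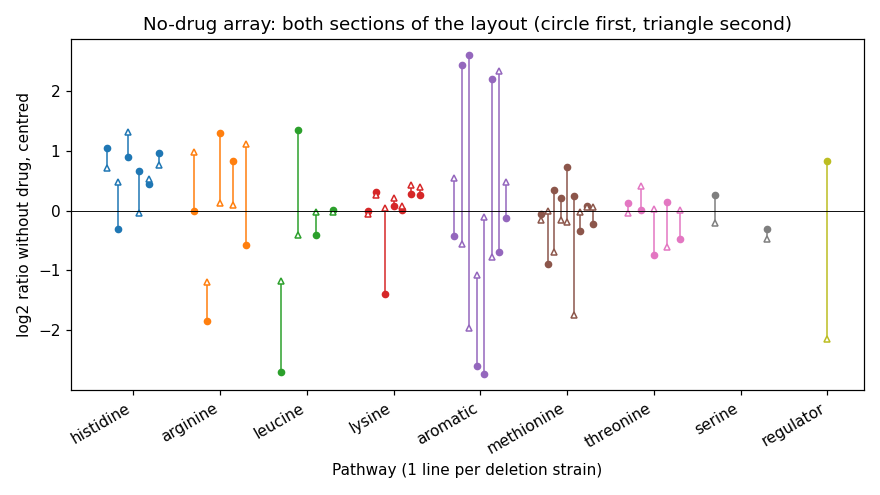
Centred log2 ratio on the array without drug (y axis) in the first (circles) and the second section (triangles) of the layout, 1 line per deletion strain, by pathway (x axis). The aromatic strains and GCN4 have the widest gaps, with a median of 2.79 for the aromatic strains, and lysine strains mostly lie close to 0.

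At a fixed 2-fold cut, the number of members off the array median did not grow evenly with dose, and neither did that of all strains. Without drug it was 5 of 47, or 10.6%, against 6.25% of all strains, and at 1 and 5 µg/ml it was 3 and 6, against 7.46% and 18.4% of all strains. At 10, 15 and 20 µg/ml it was 13, 11 and 11 members, or 27.7%, 23.4% and 23.4%, against 18.1%, 11.8% and 12.8% of all strains. At 25 and 30 µg/ml it was 9 and 11 members, or 19.1% and 23.4%, against 20.5% and 23.6%. At 35 µg/ml it was 9 members, or 19.1% against 29.1%, and at 40 µg/ml 16, or 34.0% against 37.4%. Histidine strains made up 3, 4 and 4 of the members off the median at 10, 15 and 20 µg/ml.

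Of 58 further genes of amino acid synthesis and its control, 54 had values. Of these 4 rose and 2 fell, or 7.41% and 3.70%, both below the 10.3% and 9.13% of all strains. SHM1, the mitochondrial serine hydroxymethyltransferase, rose by 2.63 ± 0.79. ARG82, an inositol polyphosphate kinase that also acts in arginine control, rose by 2.14 ± 0.47, and its sections were at 0.31 and 3.98. MET4, the sulfur activator named above, and SAM1, an S-adenosylmethionine synthetase, rose by 2.14 ± 0.64 and 1.94 ± 0.38. GCN3, a regulatory subunit of eIF2B that raises GCN4 translation in starved cells, fell by 2.58 ± 0.62 (adjusted p = 0.0147) with like sections (-2.43 and -2.74). GCN4 itself was not called, but its sections had opposite signs, so the 2 strains cannot be compared. MET5 was the other strain to fall. The remaining 48 had fitted changes of -1.28 to 1.02.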

How the data were processed

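The deposited values are log2 ratios of the 2 dyes per spot, made with the GenePix 5.1 program from GenePix 4000B scans, per the labels' protocols. No source used here says whether the authors normalised them. On 9 arrays 99.2% or more of the ratios were whole hundredths (within 0.001 of one), so 0.01 is the lowest ratio. On the 10 µg/ml array 2.32% were. A further 18 values, each a ratio of 1000000, were taken as codes and set to missing. Of 22575 spots, 18794 are named in the platform annotation, and 5321 of 5325 strains were matched to RefSeq by gene number. Named spots were centred per array on their median and averaged per strain, and a strain needed values on 8 or more arrays. A line against dose was fitted in R 4.3.3 by lmFit and eBayes of limma 3.58.1 (with 8 residual and 3.34 prior degrees of freedom), with Benjamini-Hochberg adjustment across the table and a threshold of 0.05. The fit was tested on simulated data. Pathway lists are described by counts and medians, with no set test. Values on every array are given for members past the threshold, the member with the largest absolute change of each pathway, GCN4 and LEU9. Other genes are named only past the threshold, except neighbours by systematic name. The members and lists were chosen with earlier results of these data known. Alternatives changed the centring, spread, averaging, section, dose scale, days of selection and arrays used.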

Additional observations from a re-analysis of the deposited data

How the results depend on the processing

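Counts of members that rose and fell, 2 and 9 as reported, depend on the setting, as do those of all strains, 547 and 486. They were 5 and 4 on ratios as deposited (851 and 379 over all strains, where the median change was 0.33 in place of 0.09), 0 and 1 when all arrays were given equal spread (55 and 38), 0 and 3 after quantile normalization (111 and 144), 0 and 3 with days as a covariate (157 and 182), 1 and 3 on the 4-day arrays alone (93 and 157), and 0 and 0 on the 2-day arrays alone and for the mean of the 4-day minus that of the 2-day arrays. In limma at an unadjusted p below 0.05, these last 2 fits had 2 and 5, and 3 and 6, members with positive and negative changes. Equal spread had 2 and 6, quantile normalization 1 and 7 and the covariate 3 and 6. Against log2(dose + 1), 2 and 2 members were called (232 and 260), in the first section 2 and 6 (507 and 435), and in the second 3 and 3 (458 and 384). Leaving out 1 array gave 1 to 3 that rose and 3 to 8 that fell. On the 2-day arrays alone the slopes of HIS7, ARG1, ARG3, LEU3 and SER2 turned, to 0.60, 0.77, 2.46, 2.97 and 2.52 when scaled to 40 µg/ml, with no call. The cause was not tested. Of 1034 results of single members under an alternative, 904 kept their side of the threshold. Of the rest, 114 lost a call with the sign kept, 11 gained one, and 5 turned sign and lost the call as well. Most of the 904 came from the 36 strains not called, and only the 11 called strains could lose a call. Apart from fits that leave out 1 array, LEU4 and MET16 were called under 9 of 12 alternatives. THR1 and THR4 were called under 6 of 12, and the other called strains under 2 to 5. The call that equal spread kept was HIS7, at -1.95. No paired analysis was possible because each dose has 1 array. Depth in counts does not apply to arrays; the floor of 0.01 limits falls such as that of LEU4.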
